A study of Mus musculus with 17 samples.

Results

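The 48 genes described here encode the machinery of G2 and mitosis, from the cyclins and CDK1 to the proteins of the kinetochore, the spindle and the cleavage furrow. They were taken from a list of symbols and read from a deposited table of counts for 48820 mouse gene identifiers. All 48 were found, and none was at 0 in any of the 17 libraries. Every one passed the filter on low counts that left 30405 genes for testing.

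Epidermal stem cells were sorted from mice that express enhanced green fluorescent protein and the tamoxifen-inducible recombinase CreERT2 from Lrig1, Lgr5 or Lgr6, and 1000 GFP-positive cells per library were sequenced as bulk RNA. These loci mark populations of the hair follicle, with Lrig1 in the upper follicle, Lgr6 in the isthmus, and Lgr5 in the lower bulge and hair germ. The comparisons asked how the populations differ with and without Pelo, whose product rescues stalled ribosomes. All mice were C57BL/6 and aged 3 months, all carried the EGFP-CreERT2 allele of their population, and all had received 4-OHT, the active form of tamoxifen. The groups labelled WT carried the genotype Pelo fl/+, that is, 1 floxed allele that the same treatment can delete, and the groups labelled Pelo -/- carried Pelo fl/fl. There were 2 WT Lrig1 libraries and 3 each of Pelo -/- Lrig1, WT Lgr6, Pelo -/- Lgr6, WT Lgr5 and Pelo -/- Lgr5. Recombination is driven by the marker itself, and the sources used here do not give the share of sorted cells that had lost Pelo. Nothing in the labels says that replicates came from separate animals, so the p-values below measure only the spread between these samples.

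Most of these genes are transcribed late in the cell cycle. In resting cells the DREAM complex holds their promoters silent through a short element called the cell cycle genes homology region, and in G2 the MuvB core with B-MYB and FOXM1 activates them, often together with NF-Y bound to CCAAT boxes. At mitotic exit the anaphase-promoting complex destroys many of the proteins, and the RNAs drop as cells enter G1, so the summed RNA is widely read as a measure of how many cells are dividing. In the resting phase of the hair cycle most follicle stem cells do not divide, while at the onset of growth the hair germ and the bulge enter the cycle.

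The promoters of 6 of the genes are printed to set beside the levels. In 5 of them the window read holds matches to the homology region or a CCAAT box, and in 1 it holds no match to the letters searched for. Ckap2l, Hmmr and Ccnb2 were among the genes that passed the test between populations, and Top2a and Cdc20 are among the most abundant per length. Pttg1, the most abundant, is the 1 without a match. Sequences are RefSeq promoter windows on GRCm38.p6, read 5′ to 3′ along the gene from 150 bases before the annotated start to 20 bases after it. Capitals mark matches to TTTGAA or its form TTTAAA, and to CCAAT, on either strand, so that TTCAAA and ATTGG are such matches on the other strand. All 6 genes lie on the minus strand, at chr2:129297193-129297362 (Ckap2l), chr11:40733418-40733587 (Hmmr), chr9:70421535-70421704 (Ccnb2), chr11:99024170-99024339 (Top2a), chr4:118437324-118437493 (Cdc20) and chr11:43425962-43426131 (Pttg1).
Ckap2l: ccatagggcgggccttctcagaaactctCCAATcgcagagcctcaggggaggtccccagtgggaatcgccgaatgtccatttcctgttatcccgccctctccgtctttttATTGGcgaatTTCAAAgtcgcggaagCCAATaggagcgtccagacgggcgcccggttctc
Hmmr: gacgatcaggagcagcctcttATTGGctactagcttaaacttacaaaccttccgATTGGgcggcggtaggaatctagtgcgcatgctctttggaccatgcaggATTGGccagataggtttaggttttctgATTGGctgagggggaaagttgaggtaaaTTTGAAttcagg
Ccnb2: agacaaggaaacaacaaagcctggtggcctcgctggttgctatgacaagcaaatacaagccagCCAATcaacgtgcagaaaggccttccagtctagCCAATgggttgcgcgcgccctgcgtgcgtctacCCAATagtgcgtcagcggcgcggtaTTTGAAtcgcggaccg
Top2a: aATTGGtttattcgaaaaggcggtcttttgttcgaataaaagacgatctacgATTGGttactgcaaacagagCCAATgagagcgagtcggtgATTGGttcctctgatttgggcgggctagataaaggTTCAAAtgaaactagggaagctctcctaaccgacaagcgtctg
Cdc20: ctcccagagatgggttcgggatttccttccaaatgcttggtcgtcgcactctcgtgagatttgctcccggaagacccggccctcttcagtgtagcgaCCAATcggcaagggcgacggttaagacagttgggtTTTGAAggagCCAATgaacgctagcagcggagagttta
Pttg1: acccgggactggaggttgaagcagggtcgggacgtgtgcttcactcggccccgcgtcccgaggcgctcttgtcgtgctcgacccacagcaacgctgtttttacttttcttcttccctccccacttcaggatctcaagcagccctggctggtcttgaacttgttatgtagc

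Over the whole windows, which run from 250 bases before the start to 50 after it, 39 of the 48 genes had at least 1 of 41 windows. The other 9 were Tpx2, Ccna2, Cdca2, Aurkb, Cdc25c, Foxm1, Kif20a, Dlgap5 and Spc24. TTTGAA, the commonest form of the homology region, was in 78.0% of the 41 windows, against 16.0% of the 21262 windows of all protein-coding genes. With the form TTTAAA added, which reads the same on both strands, the shares were 85.4% and 25%. CCAAT was in 73.2% against 38.2%, and 51.2% held 2 or more CCAAT boxes against 12.8%. Both TTTGAA and CCAAT stood in 65.9% of the windows against 6.38%. By gene, 25 had both, 5 had TTTGAA without CCAAT, 3 had CCAAT without TTTGAA, and 6 had neither. Mad2l1, Melk, Nuf2, Nusap1 and Pttg1 had no match to any of the 3 motifs, which says only that these letters are not in the windows. The window of Pttg1, chr11:43425932-43426231, lies within the gene as annotated by GENCODE M21 (chr11:43420250-43426251). Bases before that GENCODE start were therefore not searched.

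Libraries held 9647507 to 28098841 counts, with 9647507 to 17219054 in the 6 Lgr5 libraries and 13333497 to 28098841 in the 11 others. Counts of Gm10800, a predicted gene with satellite-like repeats, made up 6.61%, 2.73% and 16.6% of WT Lgr5 libraries and 1.12%, 4.2% and 6.15% of Pelo -/- Lgr5 libraries, against 0.149% to 1.83% elsewhere. Genes with at least 10 counts numbered 21623, 16933 and 26220 in WT Lgr5 and 16805, 19259 and 22385 in Pelo -/- Lgr5, against 15025 to 20691 elsewhere. Replicate 3 of WT Lgr5 stood apart on both measures. Keratinocyte markers summed to 8959 to 19770 CPM in Lgr5 libraries and to 25650 to 39710 CPM elsewhere, and none of the 12 was at 0. Of the sorting markers, Lgr5 stood at 276 to 570.0 CPM in the Lgr5 libraries and at 0.0531 to 29.4 CPM elsewhere, while Lrig1 stood at 7.42 to 41.7 CPM in the Lrig1 libraries and at 39.3 to 60.0 CPM in the Lgr6 libraries, and Lgr6 at 79.4 to 197 CPM in the Lgr6 libraries and at 58.3 to 109 CPM in the Lrig1 libraries. Lrig1 was thus no higher in the cells sorted for it than in the Lgr6 cells. Pelo itself did not separate the genotypes in Lrig1, Lgr5 or Lgr6 cells (log2 fold changes ± SE of -1.50 ± 0.83, 0.31 ± 0.74 and 0.09 ± 0.75, edgeR adjusted p = 1, 1.00 and 1). The sources used here do not say which part of the gene is deleted.

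The 48 genes together made up 0.0356% to 0.179% of the counts of a library. CPM below are counts scaled by library total and by the TMM method of edgeR, which assumes that most genes do not differ between libraries. On this scale the median log2 fold change of all tested genes against Lgr5 was still -0.989 for Lrig1 and -0.491 for Lgr6 in WT. In Pelo -/- it was -0.637 and -0.608. The sum of the 48 genes was 1179 and 896 CPM in WT Lrig1 and 985, 601 and 1143 CPM in Pelo -/- Lrig1. In WT Lgr6 it was 1511, 1137 and 1428 CPM and in Pelo -/- Lgr6 1350.0, 1461 and 862 CPM. In WT Lgr5 it was 1071, 1295 and 188 CPM, and in Pelo -/- Lgr5 842, 353 and 248.8 CPM. The sum thus differed most within the Lgr5 groups, where the highest library was 6.90 times the lowest in WT and 3.38 times the lowest in Pelo -/-, against 1.32 to 1.90 times in the other 4 groups. In bulk RNA, fewer dividing cells and less RNA of these genes per cell cannot be told apart.

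**Figure D1:**
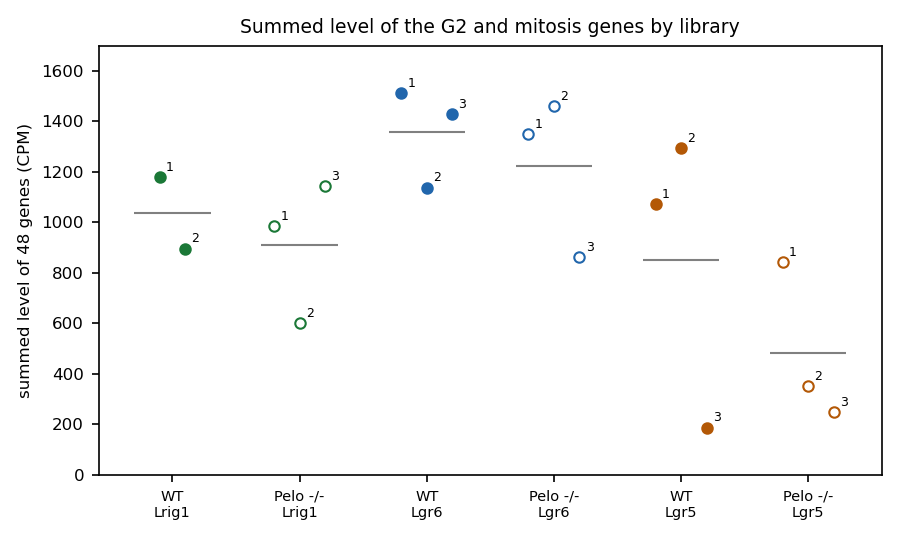
Summed level of the 48 genes (CPM after TMM scaling, linear axis from 0) in each library, by group; points are libraries with their replicate number, filled for WT and open for Pelo -/-, and bars are group means. The Lgr5 groups span 188 to 1295 CPM, while the 11 other libraries lie between 601 and 1511 CPM.

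The spread was shared by most of the genes. Replicate 3 of WT Lgr5 was the lowest of its group for 43 of the 48, and the median gene differed 7.69-fold between the highest and lowest WT Lgr5 library, against 3.63-fold over all tested genes above 0 in each library. In Pelo -/- Lgr5 these values were 6.41-fold and 2.97-fold, and replicate 1 was the highest for 33 genes. Replicate 3 of Pelo -/- Lgr6 was the lowest of its group for 35 genes, replicate 2 of Pelo -/- Lrig1 for 34, and replicate 2 of WT Lrig1 for 35. The 3 WT Lgr6 libraries were the lowest for 13, 19 and 16 genes. The library with the lowest sum, WT Lgr5 replicate 3, also had the highest share of Gm10800 counts and the most genes with at least 10 counts, and the part of these in its low level was not tested. The scaling matters here: as a share of all counts, WT Lgr5 replicates 1 and 2 stood highest of the 17 libraries, at 0.141% and 0.179%, while on the TMM scale their sums lay within the range of the Lrig1 and Lgr6 libraries.

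Per kilobase of exon, Pttg1 was the most abundant, with a median of 30.3 CPM per kb over the 17 libraries, ahead of Cdc20 at 10.9, Top2a at 10.5 and Ccnb2 at 10.4 CPM per kb. Mki67, the usual marker of proliferation, ranked 8 with 7.85 CPM per kb. At the other end, Cdc25c had 0.230, Plk1 0.380, Kif20a 0.542, Foxm1 0.559 and Nuf2 0.775 CPM per kb. Genes silent in skin gave a measure of the background. Over 1103 olfactory receptor genes the mean level was 0.0178 to 0.0990 CPM per kb in the Lgr5 libraries and 0.00856 to 0.0458 CPM per kb elsewhere. In WT Lgr5 replicate 3, 6 of the 48 genes were under 3 times that level (Bub1, Ccna2, Cdca3, Cdk1, Ckap2l and Ndc80). In Pelo -/- Lgr5 replicate 2 there were 5 (Anln, Cdc25c, Cdk1, Kif20a and Plk1), in replicate 3 there were 4 (Ckap2l, Hmmr, Kif23 and Ndc80), and in each other library 0 to 2. This measure and the Gm10800 share were chosen after the data had been seen.

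**Figure D2:**
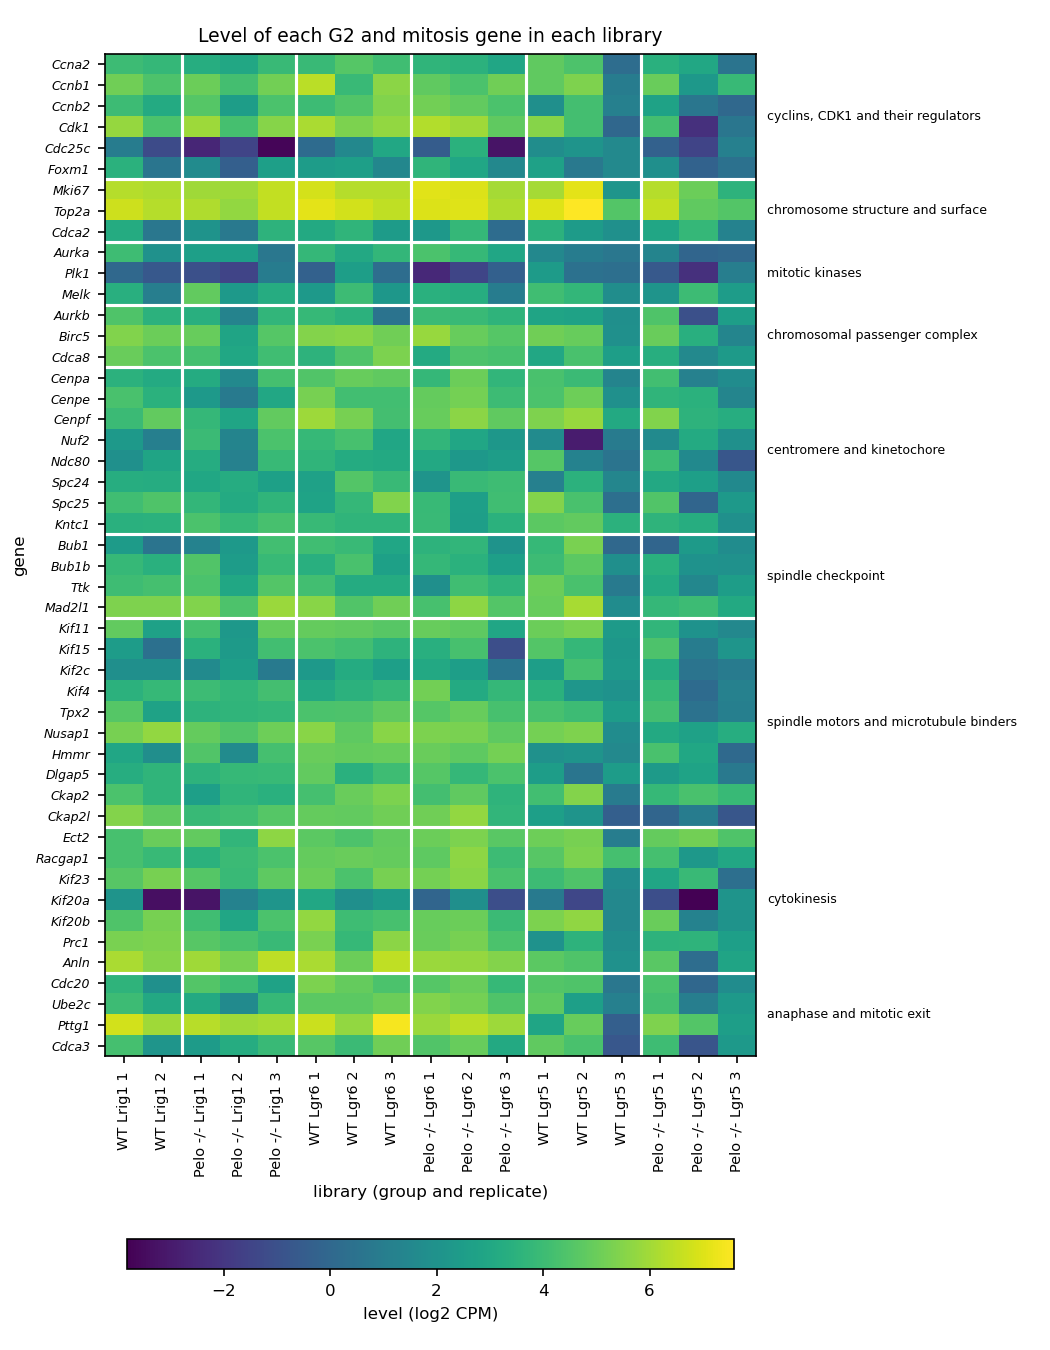
Level of each of the 48 genes (log2 CPM, colour) in each of the 17 libraries (columns, by group and replicate), with genes in rows by role. WT Lgr5 replicate 3 and Pelo -/- Lgr5 replicates 2 and 3 are darker than most other columns over most rows, and Ckap2l is darker in all 6 Lgr5 columns than in the 11 others.

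Among the cyclins and their kinase, Ccnb1, the B-type cyclin that drives entry into mitosis, stood at 35.1 and 21.0 CPM in the WT Lrig1 libraries and 32.5, 18.3 and 35.6 CPM in Pelo -/- Lrig1. In Lgr6 cells Ccnb1 stood at 84.0, 15.1 and 48.2 CPM in WT and 28.4, 20.8 and 35.2 CPM in Pelo -/- libraries, and in Lgr5 cells at 28.1, 41.4 and 1.97 CPM in WT and 32.1, 4.75 and 14.7 CPM in Pelo -/- libraries. Its genotypes overlapped in every population. Cdk1, its kinase partner, stood at 55.6 and 20.4 CPM in the WT Lrig1 libraries and 60.3, 18.7 and 46.3 CPM in Pelo -/- Lrig1. In Lgr6 cells Cdk1 stood at 70.7, 40.6 and 53.8 CPM in WT and 76.8, 62.6 and 28.1 CPM in Pelo -/- libraries, and in Lgr5 cells at 45.5, 17.9 and 0.984 CPM in WT and 18.3, 0.213 and 1.56 CPM in Pelo -/- libraries. WT Lgr5 replicate 3 and Pelo -/- Lgr5 replicates 2 and 3 were under 2 CPM, and the lowest of these, at 0.213 CPM, came from 3 counts.

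Ccnb2, the other B-type cyclin, stood at 15.9 and 8.85 CPM in the WT Lrig1 libraries and 24.0, 5.79 and 20.6 CPM in Pelo -/- Lrig1. In Lgr6 cells Ccnb2 stood at 15.8, 22.3 and 42.6 CPM in WT and 35.5, 28.8 and 20.3 CPM in Pelo -/- libraries, and in Lgr5 cells at 3.65, 18.0 and 2.24 CPM in WT and 6.69, 1.56 and 1.02 CPM in Pelo -/- libraries. Every Pelo -/- Lgr6 library lay above every Pelo -/- Lgr5 library. Ccna2, the cyclin of S phase and G2, stood at 15.9 and 13.5 CPM in the WT Lrig1 libraries and 9.76, 8.08 and 15.2 CPM in Pelo -/- Lrig1. In Lgr6 cells Ccna2 stood at 14.9, 23.7 and 17.2 CPM in WT and 12.7, 11.3 and 7.65 CPM in Pelo -/- libraries, and in Lgr5 cells at 27.6, 21.3 and 1.20 CPM in WT and 10.9, 8.01 and 1.5 CPM in Pelo -/- libraries. The Lgr6 genotypes did not overlap for Ccna2, with all Pelo -/- values below all WT values.

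Cdc25c, a phosphatase that activates CDK1, was the least abundant of the 48 per length, at 1.98 and 0.435 CPM in the WT Lrig1 libraries and 0.164, 0.362 and 0.0779 CPM in Pelo -/- Lrig1. In Lgr6 cells Cdc25c stood at 1.13, 2.87 and 8.23 CPM in WT and 0.702, 10.9 and 0.106 CPM in Pelo -/- libraries, and in Lgr5 cells at 3.45, 4.23 and 2.95 CPM in WT and 0.822, 0.355 and 2.26 CPM in Pelo -/- libraries. The Pelo -/- values lay below the WT values without overlap in Lrig1 and Lgr5 cells, while in Lgr6 cells the genotypes overlapped. In Lrig1 cells Cdc25c rested on 3, 6 and 1 counts in Pelo -/- and on 33 and 9 counts in WT. Of its exon bases, 12.7% are shared with Gm3550 on the opposite strand. Foxm1, the activator of the late genes, stood at 11.1 and 1.55 CPM in the WT Lrig1 libraries and 3.22, 0.784 and 6.07 CPM in Pelo -/- Lrig1. In Lgr6 cells Foxm1 stood at 5.61, 6.10 and 2.79 CPM in WT and 12.5, 7.75 and 2.81 CPM in Pelo -/- libraries, and in Lgr5 cells at 6.49, 1.73 and 2.95 CPM in WT and 3.70, 0.851 and 1.34 CPM in Pelo -/- libraries. The groups of Foxm1 overlapped in each genotype comparison.

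Of the proteins of the chromosome itself, Mki67, which coats mitotic chromosomes and keeps them apart, stood at 78.9 and 72.4 CPM in the WT Lrig1 libraries and 61.6, 60.8 and 92.1 CPM in Pelo -/- Lrig1. In Lgr6 cells Mki67 stood at 118, 79.2 and 81.0 CPM in WT and 135, 126 and 66.8 CPM in Pelo -/- libraries, and in Lgr5 cells at 67.1, 140.4 and 4.43 CPM in WT and 80.0, 32.4 and 11.9 CPM in Pelo -/- libraries. Top2a, the topoisomerase that untangles replicated DNA, stood at 105 and 80.4 CPM in the WT Lrig1 libraries and 76.0, 54.1 and 94.3 CPM in Pelo -/- Lrig1. In Lgr6 cells Top2a stood at 141, 111 and 90.9 CPM in WT and 127, 129.8 and 76.2 CPM in Pelo -/- libraries, and in Lgr5 cells at 133, 193 and 23.1 CPM in WT and 94.3, 27.7 and 23.1 CPM in Pelo -/- libraries. For both genes WT Lgr5 replicate 2 was the highest of the 17 libraries and WT Lgr5 replicate 3 the lowest, so the extremes of the series fell within 1 group. Cdca2, which brings a phosphatase to chromatin at mitotic exit, ranged from 1.17 to 13.8 CPM, with the lowest value in Pelo -/- Lgr6.

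Of the mitotic kinases, Aurka, which acts at centrosomes and the spindle, stood at 16.5 and 3.92 CPM in the WT Lrig1 libraries and 6.21, 6.09 and 1.64 CPM in Pelo -/- Lrig1. In Lgr6 cells Aurka stood at 13.7, 8.37 and 13.4 CPM in WT and 20.8, 14.0 and 7.70 CPM in Pelo -/- libraries, and in Lgr5 cells at 2.84, 1.99 and 1.64 CPM in WT and 2.52, 0.922 and 1.02 CPM in Pelo -/- libraries. All 6 Lgr5 values lay below all 6 Lgr6 values. Plk1, the polo-like kinase, was low throughout, at 1.02 and 0.629 CPM in the WT Lrig1 libraries and 0.491, 0.362 and 1.95 CPM in Pelo -/- Lrig1. In Lgr6 cells Plk1 stood at 0.835, 5.90 and 1.19 CPM in WT and 0.176, 0.375 and 0.797 CPM in Pelo -/- libraries, and in Lgr5 cells at 5.41, 1.35 and 1.26 CPM in WT and 0.646, 0.213 and 2.09 CPM in Pelo -/- libraries. WT and Pelo -/- Lgr6 did not overlap, but the 5.90 CPM of replicate 2 was far above the other WT values. Melk, another kinase of dividing cells, ranged from 1.97 to 29.0 CPM.

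In the chromosomal passenger complex, which corrects faulty attachments of chromosomes, the kinase Aurkb stood at 22.2 and 11.6 CPM in the WT Lrig1 libraries and 10.4, 2.41 and 12.8 CPM in Pelo -/- Lrig1. In Lgr6 cells Aurkb stood at 14.3, 11.3 and 1.45 CPM in WT and 15.5, 15 and 12.2 CPM in Pelo -/- libraries, and in Lgr5 cells at 7.17, 6.73 and 3.66 CPM in WT and 21.8, 0.496 and 6.01 CPM in Pelo -/- libraries. Replicate 3 of WT Lgr6 and replicate 2 of Pelo -/- Lgr5 stood far below the others of their groups. Birc5, its partner survivin, stood at 43.6 and 32.3 CPM in the WT Lrig1 libraries and 30.8, 7.12 and 23.7 CPM in Pelo -/- Lrig1. In Lgr6 cells Birc5 stood at 44.6, 47.1 and 34.2 CPM in WT and 56.9, 30.9 and 24.2 CPM in Pelo -/- libraries, and in Lgr5 cells at 34.7, 30.8 and 3.77 CPM in WT and 32.1, 10.4 and 2.58 CPM in Pelo -/- libraries. All 3 Pelo -/- Lrig1 values of Birc5 lay below both WT values. Cdca8, or borealin, ranged from 2.91 to 40.8 CPM.

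At the centromere, Cenpa, the histone variant that marks it, stood at 11.3 and 8.90 CPM in the WT Lrig1 libraries and 9.32, 2.96 and 18.6 CPM in Pelo -/- Lrig1. In Lgr6 cells Cenpa stood at 22.4, 30.6 and 27.6 CPM in WT and 13.6, 32.6 and 13.1 CPM in Pelo -/- libraries, and in Lgr5 cells at 20.1, 15.4 and 2.52 CPM in WT and 17.8, 2.27 and 3.28 CPM in Pelo -/- libraries. WT Lgr6 lay above WT Lgr5 and above WT Lrig1 without overlap. Cenpe, a kinesin that carries chromosomes to the spindle equator, stood at 19.8 and 11.2 CPM in the WT Lrig1 libraries and 4.91, 1.81 and 8.10 CPM in Pelo -/- Lrig1. In Lgr6 cells Cenpe stood at 37.8, 17.7 and 17.4 CPM in WT and 29.7, 36.6 and 15.9 CPM in Pelo -/- libraries, and in Lgr5 cells at 20.4, 33.4 and 3.77 CPM in WT and 12.4, 11 and 2.63 CPM in Pelo -/- libraries. Its Pelo -/- Lrig1 values all lay below the WT Lrig1 values.

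Nuf2, part of the NDC80 complex that binds microtubules, stood at 4.91 and 2.18 CPM in the WT Lrig1 libraries and 15.8, 2.53 and 20.6 CPM in Pelo -/- Lrig1. In Lgr6 cells Nuf2 stood at 14.1, 19.6 and 7.71 CPM in WT and 12.9, 7.56 and 4.67 CPM in Pelo -/- libraries, and in Lgr5 cells at 3.25, 0.128 and 1.91 CPM in WT and 3.11, 9.01 and 3.81 CPM in Pelo -/- libraries. Its lowest value, 0.128 CPM in WT Lgr5 replicate 2, came from 2 counts. The other members of that complex, Ndc80, Spc24 and Spc25, ranged from 0.591 to 23.7, from 2.23 to 23.2 and from 0.922 to 44.7 CPM. Cenpf, a large kinetochore protein, ranged from 7.36 to 59.8 CPM, and Kntc1, of the complex that recruits dynein to kinetochores, from 3.81 to 28.6 CPM.

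Among the spindle checkpoint genes, Bub1, a kinase that loads the checkpoint on kinetochores, stood at 5.45 and 1.5 CPM in the WT Lrig1 libraries and 2.34, 5.01 and 17.8 CPM in Pelo -/- Lrig1. In Lgr6 cells Bub1 stood at 17.3, 15.1 and 7.55 CPM in WT and 11.7, 13.1 and 4.09 CPM in Pelo -/- libraries, and in Lgr5 cells at 14.3, 39.7 and 1.04 CPM in WT and 0.939, 5.32 and 3.33 CPM in Pelo -/- libraries. The 39.7 CPM of WT Lgr5 replicate 2 was the highest of the series, and replicate 3 of the same group was at 1.04 CPM. Mad2l1, which restrains the anaphase-promoting complex, ranged from 3.34 to 68.6 CPM. Bub1b and Ttk, kinases of the same pathway, ranged from 3.66 to 26.6 and from 1.80 to 32.8 CPM, and WT Lgr5 replicate 3 was the lowest of all libraries for these 3 genes.

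Among the spindle proteins, Ckap2l, a microtubule binder of the spindle and midbody, separated the populations most plainly. It stood at 44.6 and 27.7 CPM in the WT Lrig1 libraries and 14.6, 16.8 and 23.6 CPM in Pelo -/- Lrig1. In Lgr6 cells Ckap2l stood at 29.3, 29.1 and 34.6 CPM in WT and 34.2, 54.1 and 13 CPM in Pelo -/- libraries, and in Lgr5 cells at 6.08, 4.23 and 0.765 CPM in WT and 0.939, 1.99 and 0.591 CPM in Pelo -/- libraries. All 6 Lgr5 libraries, including the pair of WT libraries with high Mki67, lay below the 11 others. Per kb of exon, Ckap2l stood at 2.47 and 2.80 times the mean of the olfactory receptor genes in WT and Pelo -/- Lgr5 replicates 3, and at 13.3 to 72.8 times in the other 4 Lgr5 libraries, so its fold changes against Lgr5 rest in part on values near that background. In the 11 other libraries it stood at 204 to 1288 times. The gene lies on the minus strand of chromosome 2 (GRCm38 chr2:129268210-129297212), and 5.77% of its exon bases are shared with the antisense gene Gm14024, whose reads cannot be told apart where strand was not used.

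Hmmr, a spindle assembly factor also known as a hyaluronan receptor, stood at 7.55 and 3.58 CPM in the WT Lrig1 libraries and 22.6, 3.26 and 18.9 CPM in Pelo -/- Lrig1. In Lgr6 cells Hmmr stood at 32.1, 29.9 and 30.6 CPM in WT and 31.7, 27.4 and 37.3 CPM in Pelo -/- libraries, and in Lgr5 cells at 3.85, 4.29 and 2.90 CPM in WT and 19.9, 7.80 and 1.07 CPM in Pelo -/- libraries. The 6 Lgr6 values lay close together, while WT Lgr5 was low in all 3 libraries and the Lrig1 and Pelo -/- Lgr5 values were scattered. Dlgap5, which stabilises kinetochore fibres, stood at 9.77 and 12.6 CPM in the WT Lrig1 libraries and 11.9, 14.4 and 14.4 CPM in Pelo -/- Lrig1. In Lgr6 cells Dlgap5 stood at 28.5, 10.8 and 16.6 CPM in WT and 23.9, 13.7 and 20.6 CPM in Pelo -/- libraries, and in Lgr5 cells at 5.81, 1.54 and 5.58 CPM in WT and 5.22, 6.88 and 1.72 CPM in Pelo -/- libraries. All 6 Lgr5 libraries again lay below the 11 others.

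Nusap1, which bundles microtubules around chromosomes, stood at 38.5 and 53.7 CPM in the WT Lrig1 libraries and 30.0, 22.3 and 33.7 CPM in Pelo -/- Lrig1. In Lgr6 cells Nusap1 stood at 47.9, 26.9 and 47.3 CPM in WT and 40.3, 39.7 and 27.1 CPM in Pelo -/- libraries, and in Lgr5 cells at 36.6, 42.4 and 3.34 CPM in WT and 8.69, 6.45 and 9.66 CPM in Pelo -/- libraries. WT Lgr5 replicates 1 and 2 stood at the level of the other populations, and the 4 remaining Lgr5 libraries were all under 10 CPM. Kif15, a plus-end motor of the spindle, stood at 5.69 and 1.31 CPM in the WT Lrig1 libraries and 11.1, 5.25 and 17.5 CPM in Pelo -/- Lrig1. In Lgr6 cells Kif15 stood at 20.3, 17.5 and 11.9 CPM in WT and 10.5, 19.5 and 0.478 CPM in Pelo -/- libraries, and in Lgr5 cells at 23.5, 13.7 and 4.70 CPM in WT and 21.4, 1.99 and 4.35 CPM in Pelo -/- libraries. Its lowest value was in Pelo -/- Lgr6 and not in an Lgr5 library.

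Kif4, a motor on chromosome arms, stood at 11.5 and 14.2 CPM in the WT Lrig1 libraries and 16.1, 12.9 and 18.4 CPM in Pelo -/- Lrig1. In Lgr6 cells Kif4 stood at 8.41, 11.4 and 13.9 CPM in WT and 35.6, 8.81 and 13.8 CPM in Pelo -/- libraries, and in Lgr5 cells at 11, 4.49 and 3.94 CPM in WT and 14.1, 1.14 and 2.31 CPM in Pelo -/- libraries. Reads from 15.1% of its exon bases could also belong to Pdzd11 on the opposite strand. Kif11, the motor that separates spindle poles, ranged from 2.85 to 39.4 CPM, Tpx2, which activates Aurora A, from 1.42 to 30.5 CPM, and Ckap2, a microtubule stabiliser, from 1.91 to 45.0 CPM. Kif2c, a microtubule depolymerase, ranged from 1.49 to 18.5 CPM.

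In cytokinesis, Prc1, which bundles the microtubules of the spindle midzone, stood at 39.5 and 41.3 CPM in the WT Lrig1 libraries and 24.5, 20.1 and 15.2 CPM in Pelo -/- Lrig1. In Lgr6 cells Prc1 stood at 39.2, 14.3 and 48.1 CPM in WT and 31.8, 38.4 and 20.3 CPM in Pelo -/- libraries, and in Lgr5 cells at 3.99, 11.9 and 3.39 CPM in WT and 11.8, 12.1 and 6.07 CPM in Pelo -/- libraries. Of its exon bases, 11.1% are shared with Rccd1 on the opposite strand. The Lgr5 values lay below all others, and the Pelo -/- Lrig1 values lay below those of WT Lrig1. Anln, or anillin, the scaffold of the contractile ring, stood at 70.5 and 46.4 CPM in the WT Lrig1 libraries and 62.0, 38.9 and 87.4 CPM in Pelo -/- Lrig1. In Lgr6 cells Anln stood at 69.7, 32.4 and 89.4 CPM in WT and 58.6, 54.6 and 44.2 CPM in Pelo -/- libraries, and in Lgr5 cells at 26.5, 21.9 and 3.83 CPM in WT and 25.8, 1.21 and 7.19 CPM in Pelo -/- libraries. Anln too was lower in each Lgr5 library than in any other.

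Kif23 and Racgap1 form centralspindlin, the complex that calls the contractile ring to the cell equator. Kif23 stood at 24.5 and 37.6 CPM in the WT Lrig1 libraries and 24.1, 15 and 27.0 CPM in Pelo -/- Lrig1. In Lgr6 cells Kif23 stood at 32.9, 20.4 and 37.6 CPM in WT and 37.3, 46.7 and 19.7 CPM in Pelo -/- libraries, and in Lgr5 cells at 15.8, 21.7 and 3.28 CPM in WT and 7.57, 15.1 and 1.29 CPM in Pelo -/- libraries. Racgap1 stood at 19.4 and 14.7 CPM in the WT Lrig1 libraries and 11.1, 15.6 and 20.6 CPM in Pelo -/- Lrig1. In Lgr6 cells Racgap1 stood at 29.4, 31.7 and 29.3 CPM in WT and 27.2, 50.8 and 16.0 CPM in Pelo -/- libraries, and in Lgr5 cells at 24.7, 41.1 and 18.5 CPM in WT and 18.5, 4.75 and 8.16 CPM in Pelo -/- libraries. Racgap1 was unusual in WT Lgr5 replicate 3, where its 18.5 CPM lay within the range of the Lrig1 libraries, and its Lgr5 genotypes did not overlap, though the lowest WT and the highest Pelo -/- value were nearly equal.

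Kif20a, a motor of the midzone, was near the floor in several libraries, at 4.32 and 0.0967 CPM in the WT Lrig1 libraries and 0.109, 2.35 and 4.36 CPM in Pelo -/- Lrig1. In Lgr6 cells Kif20a stood at 8.23, 3.63 and 5.33 CPM in WT and 0.936, 3.62 and 0.478 CPM in Pelo -/- libraries, and in Lgr5 cells at 1.83, 0.385 and 2.84 CPM in WT and 0.470, 0.0709 and 4.19 CPM in Pelo -/- libraries. Its lowest level was 0.0709 CPM, and 29.3% of its exon bases are shared with Cdc23 on the opposite strand, so its values are uncertain. Ect2, the exchange factor that activates RhoA at the equator, ranged from 2.02 to 50.2 CPM. Unlike most of the genes it stayed at 29.5, 35.4 and 21.6 CPM in Pelo -/- Lgr5, within the range of the other populations. Kif20b, a motor of late cytokinesis, ranged from 2.34 to 54.3 CPM.

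For anaphase and mitotic exit, Pttg1, or securin, which holds separase inactive until anaphase, stood at 113 and 62.5 CPM in the WT Lrig1 libraries and 83.5, 62.4 and 69.0 CPM in Pelo -/- Lrig1. In Lgr6 cells Pttg1 stood at 103, 53.4 and 174 CPM in WT and 59.2, 86.3 and 60.5 CPM in Pelo -/- libraries, and in Lgr5 cells at 7.50, 30.5 and 0.765 CPM in WT and 41.4, 23.0 and 5.96 CPM in Pelo -/- libraries. All Lgr5 values lay below the lowest of the others. Cdc20, which switches on the anaphase-promoting complex, stood at 12.2 and 3.77 CPM in the WT Lrig1 libraries and 23.2, 16.7 and 6.70 CPM in Pelo -/- Lrig1. In Lgr6 cells Cdc20 stood at 41.1, 29.9 and 20.4 CPM in WT and 23.9, 31.8 and 14.4 CPM in Pelo -/- libraries, and in Lgr5 cells at 23.3, 21.8 and 1.64 CPM in WT and 20.5, 0.993 and 3.28 CPM in Pelo -/- libraries. WT Lgr6 lay above WT Lrig1 without overlap, and WT Lgr5 replicates 1 and 2 stood within the range of WT Lgr6. Ube2c, the conjugating enzyme of that complex, ranged from 2.06 to 42.7 CPM, and 22.8% of its exon bases are shared with Tnnc2 on the opposite strand. Cdca3, which targets the kinase WEE1 for destruction, ranged from 0.567 to 35.1 CPM.

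**Figure D3:**
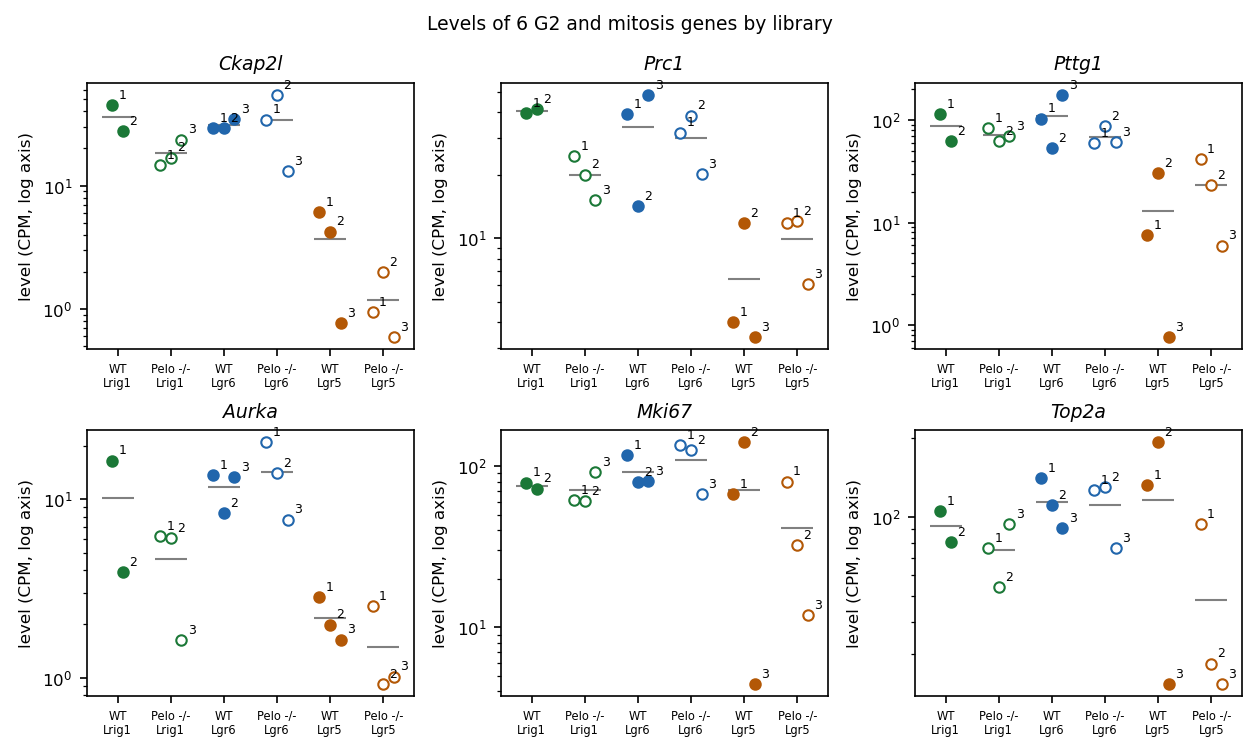
Levels (CPM, log axis) of Ckap2l, Prc1, Pttg1, Aurka, Mki67 and Top2a in each library by group; points are libraries with their replicate number, filled for WT and open for Pelo -/-, and bars are group means. Ckap2l, Prc1 and Pttg1 are lower in all 6 Lgr5 libraries than in the 11 others, while Mki67 and Top2a in WT Lgr5 range from the lowest to the highest level of the series.

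The first question was whether loss of Pelo changed these genes within each population. No gene of the 48 passed the test in Lrig1, Lgr5 or Lgr6 cells, where a pass means an edgeR quasi-likelihood p under 0.05 after Benjamini-Hochberg adjustment over all 30405 genes. Of all tested genes 0% passed in Lrig1, 0.0197% in Lgr5 and 0% in Lgr6, so this comparison found almost nothing anywhere. At an unadjusted edgeR p under 0.05 there were 1, 9 and 1 of the 48 in Lrig1, Lgr5 and Lgr6 cells. These are 2.08%, 18.8% and 2.08%, against 3.64%, 6.25% and 3.88% of all genes. DESeq2 and limma-voom called 0 of the 48 in each population too.

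In Lrig1 cells the 48 log2 fold changes of Pelo -/- against WT had a median of -0.06, beside -0.02 over all tested genes, with 22 above and 26 below 0. The 22 are 45.8% of the 48, beside 48.2% of all tested genes. Without WT Lrig1 replicate 1 the median was 0.05, and without Pelo -/- Lrig1 replicate 3 it was -0.44. The values with the smallest p on the higher side were Nuf2 at 1.87 ± 1.02, Hmmr at 1.42 ± 0.83 and Kif15 at 1.69 ± 1.11, whose groups overlapped. On the lower side they were Cenpe at -1.65 ± 0.77 (edgeR adjusted p = 1), Cdc25c at -2.52 ± 1.36 and Prc1 at -1.02 ± 0.59, without overlap. Groups did not overlap for 1 gene higher (Kntc1) and 11 lower in Pelo -/-, or 2.08% and 22.9% of the 48, where 8.17% and 10.7% of all genes did the same. Besides Cenpe, Cdc25c and Prc1, the 11 were Ckap2l, Cdca8, Nusap1, Birc5, Kif20b, Ckap2, Spc25 and Spc24. The Cdc25c values in Pelo -/- Lrig1 rested on 3, 6 and 1 counts.

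In Lgr5 cells 39 of the 48 genes had lower values in Pelo -/-, with a median of -0.83 beside -0.14 over all tested genes. Values were higher for 18.8% of the 48, beside 43.9% of all tested genes. Nusap1 at -1.73 ± 0.58 (edgeR adjusted p = 0.547), Racgap1 at -1.42 ± 0.54 (adjusted p = 0.654) and Bub1 at -2.52 ± 0.98 (adjusted p = 0.661) had the smallest p. On the higher side were Hmmr at 1.38 ± 0.72, Nuf2 at 1.59 ± 0.88 and Prc1 at 0.64 ± 0.54. All 6 genes of the cyclin and CDK1 group, all 4 of the spindle checkpoint and all 3 mitotic kinases had lower values, and none of them passed the test. Groups overlapped for all but Racgap1 and Cdc25c, both lower, or 4.17% of the 48 beside 4.41% of all genes, and 0 were higher without overlap beside 3.8%. The median depended on single libraries: it was -1.21 without WT Lgr5 replicate 3, -1.73 without Pelo -/- Lgr5 replicate 1 and -0.44 without WT Lgr5 replicate 2, and 0 genes were called in each case. Beside this, 9 of 9 melanocyte markers had higher values in Pelo -/- Lgr5, with sums of 148 to 341 CPM against 64.4 to 135 CPM. Mitf alone gave 78.0, 80.6 and 129 CPM of these sums in Pelo -/- and 40.3, 63.4 and 84.7 CPM in WT. The other melanocyte markers except Tyr were highest of the Lgr5 libraries in Pelo -/- replicate 1. Dct stood at 177, 46.4 and 1.13 CPM in Pelo -/- against 9.94, 39.0 and 8.91 CPM in WT. Of the keratinocyte markers 11 of 12 had higher values, with sums of 12980.0 to 19770.0 CPM against 8959 to 12970.0 CPM. No melanocyte or keratinocyte marker passed the test, and their part in the result was not tested.

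In Lgr6 cells 32 of the 48 had lower values in Pelo -/-, with a median of -0.19 beside -0.27 over all tested genes. Values were higher for 33.3% of the 48, close to the 34.8% of all tested genes. Plk1 at -2.53 ± 1.12 (edgeR adjusted p = 1), Kif20a at -1.77 ± 1.31 and Ccna2 at -0.82 ± 0.75 had the smallest p on the lower side, and Kif4 at 0.79 ± 0.74, Aurkb at 0.66 ± 0.89 and Foxm1 at 0.67 ± 0.91 on the higher side. Plk1, Kif20a, Ccna2 and Ndc80 were lower without overlap and 0 were higher, or 8.33% and 0% of the 48, beside 5.74% and 2.5% of all genes. For all but Ccna2 the highest Pelo -/- and lowest WT values were nearly equal. They were 3.624 and 3.629 CPM for Kif20a, 0.7965 and 0.8349 CPM for Plk1, and 8.485 and 8.692 CPM for Ndc80. Without Pelo -/- Lgr6 replicate 3, the library with the lowest sum of its group, the median was 0.05. Keratinocyte markers had higher values in Pelo -/- Lgr6 for 10 of 12 and markers of Langerhans cells and macrophages for 1 of 11, with sums of the latter at 40.1 to 48.2 CPM against 135 to 369 CPM, and 0 of them passed. Cd74 alone gave 32.4, 38.5 and 35.2 CPM of the latter sums in Pelo -/- and 331, 121 and 125 CPM in WT. The part of these markers in the result was not tested.

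No gene passed the test of a difference in the Pelo effect between any pair of populations. At an unadjusted edgeR p under 0.05 there were 2 for Lrig1 against Lgr5, or 4.17% beside 5.31% of all tested genes, Bub1 with a difference of 3.79 ± 1.47 and Kntc1 with 2.08 ± 0.86, and 0 for each of the other pairs. DESeq2 and limma-voom called 0 for every pair.

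**Figure D4:**
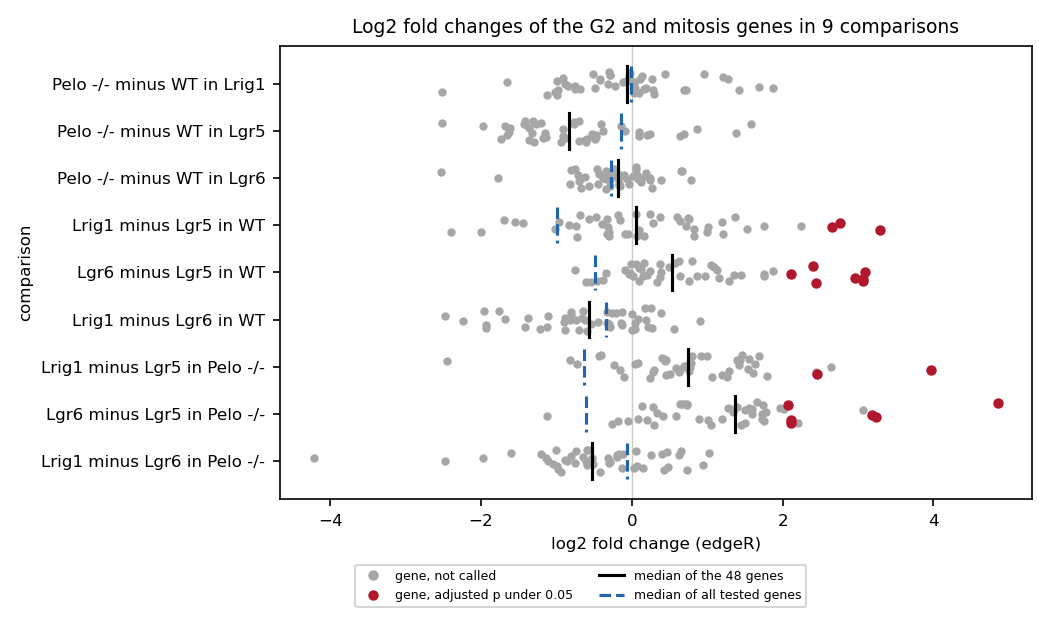
Log2 fold changes (edgeR, horizontal axis) of the 48 genes in 9 comparisons (rows); each point is a gene, red where the adjusted p was under 0.05, with the median of the 48 genes as a solid line and that of all tested genes as a dashed line. Red points appear in the 4 comparisons with Lgr5 and are all on the higher side.

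The second question was how the populations differ. Ckap2l was higher in Lrig1 and in Lgr6 cells than in Lgr5 cells, in WT and in Pelo -/- mice, with log2 differences of 3.07 to 4.86. A few further genes were higher in 1 or more of these comparisons, among them Prc1, Pttg1, Hmmr and Aurka. None of the 48 was lower than in Lgr5 cells by the edgeR test, while DESeq2 called Bub1 lower in WT Lrig1 at -2.68 (adjusted p = 0.037), and none differed between Lrig1 and Lgr6 cells. Most genes of the list, Mki67 and Top2a included, passed in no comparison. The comparisons of Lrig1 and of Lgr6 with Lgr5 share the Lgr5 libraries within a genotype, while those of WT and of Pelo -/- use separate libraries.

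In WT, 3 of the 48 genes, or 6.25%, were higher in Lrig1 than in Lgr5 cells, beside 9.09% of all tested genes, and 0 were lower, beside 1.99%. These were Ckap2l with a log2 fold change of 3.29 ± 0.70 (edgeR adjusted p = 0.00220), Prc1 with 2.66 ± 0.61 (adjusted p = 0.00394) and Pttg1 with 2.77 ± 0.88 (adjusted p = 0.0494). The median of the 48 was 0.06, beside -0.99 over all tested genes. Without WT Lgr5 replicate 3 the median was -0.46 and 2 genes were called, and with RLE scaling, the method of DESeq2, in place of TMM it was -0.19. Without WT Lrig1 replicate 1 it was -0.11, so the direction of the list was not stable. RLE moved the median of all tested genes to -1.36 and -0.996 for WT Lrig1 and WT Lgr6 against Lgr5, and to -0.75 and -0.77 for Pelo -/-. Without WT Lrig1 replicate 2, 1 gene was called and Prc1 had an adjusted p of 0.0655. Pttg1 lost its call in 8 of 13 alternatives.

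Between Lgr6 and Lgr5 in WT, 7 of the 48, or 14.6%, were higher, beside 10.6% of all tested genes, and 0 were lower, beside 1.57%. Ckap2l had a log2 fold change of 3.07 ± 0.66 (edgeR adjusted p = 0.00209), Prc1 of 2.40 ± 0.57 (adjusted p = 0.00456) and Hmmr of 3.07 ± 0.76 (adjusted p = 0.00690). Pttg1 with 3.09 ± 0.85 (adjusted p = 0.0190), Dlgap5 with 2.11 ± 0.65 (adjusted p = 0.0311), Nuf2 with 2.96 ± 0.92 (adjusted p = 0.0335) and Aurka with 2.45 ± 0.78 (adjusted p = 0.0374) followed. In value 38 were higher, or 79.2% beside 39.6% of all tested genes, with a median of 0.53 beside -0.49 over all tested genes. Without WT Lgr5 replicate 3 the median was 0.05 and 2 genes were called, and without WT Lgr6 replicate 3 it was 0.30, again with 2 called. Without WT Lgr6 replicate 1, 4 were called. Ckap2l passed in each of these, and Hmmr had an adjusted p of 0.0599 without WT Lgr5 replicate 3. Nuf2 and Aurka each lost their call in 7 of 14 alternatives, Dlgap5 in 6, and Pttg1 and Prc1 in 3 each.

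In Pelo -/- mice, 2 of the 48, or 4.17%, were higher in Lrig1 than in Lgr5 cells, beside 5.77% of all tested genes, and 0 were lower, beside 2.08%. These were Ckap2l with 3.97 ± 0.70 (edgeR adjusted p = 0.000571) and Anln with 2.46 ± 0.76 (adjusted p = 0.0498). In value 40 of the 48 were higher, or 83.3% beside 36.6% of all tested genes, with a median of 0.75 beside -0.64 over all tested genes. Without Pelo -/- Lgr5 replicate 1, the library of its group with the highest sum, the median was 1.67 and 7 genes were called. Leaving out either other Lgr5 library, or Lrig1 replicate 1 or 3, left 1 gene called, and Anln lost its call in 8 of 14 alternatives.

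Between Lgr6 and Lgr5 in Pelo -/- mice, 6 of the 48, or 12.5%, were higher, beside 7.23% of all tested genes, and 0 were lower, beside 2.72%. Of all tested genes 9.95% passed in either direction. Ckap2l had the largest difference, 4.86 ± 0.73 (edgeR adjusted p = 6.52e-05), followed by Aurka with 3.24 ± 0.80 (adjusted p = 0.00895) and Ccnb2 with 3.19 ± 0.81 (adjusted p = 0.0110). Nusap1 with 2.11 ± 0.58 (adjusted p = 0.0199), Dlgap5 with 2.07 ± 0.65 (adjusted p = 0.0407) and Kif23 with 2.12 ± 0.68 (adjusted p = 0.0485) also passed. In value 44 of the 48 were higher, or 91.7% beside 37.4% of all tested genes, with a median of 1.37 beside -0.61. Of the 48, 19 had an unadjusted edgeR p under 0.05, or 39.6%, beside 24.6% of all tested genes. Without Pelo -/- Lgr5 replicate 1 the median was 2.10 and 17 genes were called, while leaving out Lgr5 replicate 3, Lgr6 replicate 1 or Lgr6 replicate 2 left 3. Aurka passed in all 14 alternatives, Ccnb2 in 12, Nusap1 in 10, Kif23 in 7 and Dlgap5 in 6.

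Ckap2l was the 1 gene of the 48 that passed in all 4 comparisons with Lgr5, and it did so in every alternative run. As a share of the summed CPM of the 48 genes, which does not depend on the scaling between libraries, it took 0.568%, 0.327% and 0.408% in WT Lgr5 and 0.111%, 0.562% and 0.237% in Pelo -/- Lgr5. In the 11 other libraries it took 1.48% to 3.78%. It was the only gene whose share was lower in all 6 Lgr5 libraries than in each of the others. On the CPM scale 5 genes, Ckap2l, Dlgap5, Prc1, Anln and Pttg1, were lower in all 6, and 0 were higher, beside 7.54% and 2.38% of all tested genes.

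Lrig1 and Lgr6 cells differed in none of the 48 genes by the edgeR test, in WT or in Pelo -/-, where 0% of all tested genes passed. At an unadjusted edgeR p under 0.05 there were 1 and 4, or 2.08% and 8.33%, beside 4.67% and 4.2% of all tested genes, and DESeq2 and limma-voom called 0. In WT 35 of the 48 had lower values in Lrig1, with a median of -0.57 beside -0.35 over all tested genes, and 12, or 25%, did not overlap, beside 12.8% of all genes. Values were higher in Lrig1 for 27.1% of the 48, beside 34.1% of all tested genes. No gene was higher in Lrig1 without overlap, beside 5.85%. Hmmr had -2.47 ± 0.87 (adjusted p = 1). In Pelo -/- 34 had lower values, with a median of -0.52 beside -0.06, and 5, or 10.4%, did not overlap, beside 5.71%, with 0 on the higher side beside 3.97%. Here 29.2% of the 48 had higher values in Lrig1, beside 46.0% of all tested genes.

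Genes of neighbouring steps of the cell cycle, taken from lists of known cell cycle genes, were read in the same fit. Of 74 other G2 and mitosis genes, 2, 4, 4 and 5 were higher in Lrig1 or Lgr6 than in Lgr5 cells, in the order WT Lrig1, WT Lgr6, Pelo -/- Lrig1 and Pelo -/- Lgr6, and 0 were lower. These are 2.7%, 5.41%, 5.41% and 6.76% of the list, below the 9.09%, 10.6%, 5.77% and 7.23% of all tested genes that were higher. Tubb4b, a tubulin, passed in all 4, with log2 fold changes of 3.20 ± 0.55, 3.32 ± 0.53, 2.02 ± 0.50 and 2.87 ± 0.51 (edgeR adjusted p = 0.000261, 9.40e-05, 0.0112 and 0.000532). Of 51 S phase genes 6, 8, 4 and 11 were higher and 0 lower, or 11.8%, 15.7%, 7.84% and 21.6%, beside the same shares of all tested genes. Gins2, of the replicative helicase, had 4.86 ± 0.57, 4.19 ± 0.54, 3.73 ± 0.52 and 4.32 ± 0.54 (edgeR adjusted p = 3.26e-06, 7.39e-06, 4.28e-05 and 6.33e-06). Tyms, which makes thymidylate, and the helicase subunit Mcm5 passed in all 4 as well.

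Of 13 G1 cyclins, kinases and CDK inhibitors 4, 5, 3 and 3 were higher in the same order, or 30.8%, 38.5%, 23.1% and 23.1%, beside 9.09%, 10.6%, 5.77% and 7.23% of all tested genes, and 0 were lower. Ccnd2, a D-type cyclin, stood at 405 to 1240.0 CPM in the Lrig1 and Lgr6 libraries and at 13.7 to 51.9 CPM in Lgr5, with 3.83 ± 0.47, 4.26 ± 0.46, 4.50 ± 0.46 and 5.28 ± 0.48 (edgeR adjusted p = 5.32e-06, 9.08e-07, 8.91e-07 and 1.26e-07). Cdkn1a, the CDK inhibitor p21, stood at 85.9 to 173 CPM against 1.59 to 15.4 CPM, and also passed in all 4, so that an inhibitor and a cyclin were both higher. Cell cycle transcription regulators gave 2, 2, 0 and 1 of 22 higher, or 9.09%, 9.09%, 0% and 4.55%, at or below those shares. Core subunits of the anaphase-promoting complex gave 4, 4, 2 and 2 of 17, or 23.5%, 23.5%, 11.8% and 11.8%. Anapc11, its RING subunit, passed in all 4. In the comparisons of genotype these lists gave 0 calls with 1 exception. Cdkn2b, the CDK inhibitor p15, stood at 8.98, 18.5 and 7.78 CPM in Pelo -/- Lgr5 and at 0.338, 0.449 and 0.164 CPM in WT Lgr5, with 5.19 ± 0.91 (edgeR adjusted p = 0.0366). The groups did not overlap, but its adjusted p ran from 5.83e-08 to 0.988 over 14 alternatives and was under 0.05 in 5. In Lrig1 cells its fold change was -0.52 ± 0.83 and in Lgr6 cells -0.21 ± 0.75, and its difference between Lgr6 and Lgr5 had an edgeR adjusted p of 0.483. The WT Lgr5 values of Cdkn2b lay near the floor. Against WT Lgr5, Cdkn2b was also called higher in WT Lrig1, in all 12 alternatives that held it, with log2 fold changes of 3.92 to 4.855. In WT Lgr6 it was called higher in all 13, with 4.09 to 4.76.

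Markers of other cell types were summed in each library as well. Melanocyte markers summed to 64.4 to 341 CPM in the Lgr5 libraries and to 12.7 to 40.1 CPM in the others, and hair matrix and shaft markers to 43.0 to 203 CPM against 13.2 to 45.4 CPM. Fibroblast markers summed to 42.9 to 72.5 CPM against 2.32 to 35.7 CPM, and endothelial markers to 11.7 to 27.8 CPM against 3.02 to 13.5 CPM. Sebocyte markers summed to 67.4 to 168 CPM in Lgr5 and to 219 to 516 CPM elsewhere. Markers of Langerhans cells and macrophages summed to 10.4 to 21.7 CPM in Lgr5 and to 40.1 to 369 CPM elsewhere, but this gap was that of Cd74 alone, at 0.268 to 1.09 CPM against 32.4 to 331 CPM. The 10 other markers of that list summed to 9.81 to 20.6 CPM against 6.32 to 38.2 CPM, and 4 of 11 had higher values in WT Lrig1 than in WT Lgr5. T cell markers summed to 4.17 to 21.7 CPM in Lgr5 and to 14.6 to 80.2 CPM elsewhere, with Thy1 at 0.513 to 3.40 CPM against 12.4 to 40.2 CPM. The 8 other T cell markers summed to 3.65 to 18.3 CPM against 1.75 to 59.3 CPM. In single libraries up to 3 of the 9 melanocyte markers were at 0, 4 of the 9 fibroblast, 4 of the 11 Langerhans cell and macrophage, and 5 of the 14 hair markers. Whether these sums reflect other cells, and the part of such cells in the differences between populations, was not tested.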

How the data were processed

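RNA from 1000 sorted cells per library was sequenced by a published method that the labels' protocols cite, and the authors deposited 1 table of whole-number counts per Ensembl gene for 17 libraries. Every value column was used, so 0 were left out. STAR, edgeR, GRCm38 and mm10 are named per the submitters' processing notes, while the sources used here do not give the counting tool, the annotation or the use of strand, and reads of genes that overlap on opposite strands cannot be told apart. Groups came from the sample labels. Symbols and exon lengths came from GENCODE M21 on GRCm38, where 48144 of 48820 identifiers matched without their version (40692 with it).

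Counts as deposited were analysed with edgeR 4.0.16 in R 4.3.3: filterByExpr (minimum count 10, minimum total 15) kept 30405 genes, libraries were TMM-scaled, and 1 quasi-likelihood model of the 6 groups gave all contrasts, with Benjamini-Hochberg adjustment over all tested genes and a threshold of 0.05. The common dispersion was 0.537. Totals of 9647507 to 28098841 counts limit the precision of low genes, and the lowest values rest on 1 to 3 counts. No pair of libraries agreed within sampling noise. On data simulated for Pelo -/- against WT in Lgr6 with 25725 genes, 136 of 200 genes changed 8-fold were recovered and 5 unchanged genes were called. The changed genes were drawn only from genes above a minimum mean count, and no change was simulated in Lgr5 cells. This recovery therefore does not apply to genes of low count or to the Lgr5 groups.

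The members and all gene lists were chosen with earlier results of these data known. Values in every library are given for 1 or more genes of each role, for every gene called where at most 12 were called, and for up to 3 genes per direction with the smallest p in each comparison of genotype. Other genes are given by their range. Alternatives were RLE size factors, no low-count filter, a mean CPM of at least 5, protein-coding nuclear genes only, the replicate number as a block, limma-voom (limma 3.58.1), DESeq2 1.42.0, only the groups compared, and each library left out in turn. Promoter windows came from RefSeq, and motifs were searched on both strands. Figures and tables were made with Python 3.11.15, pandas 2.3.3, numpy 2.4.6 and matplotlib 3.10.9.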

Additional observations from a re-analysis of the deposited data

How the results depend on the processing

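Counts of genes called among the 48 were 0 for the 3 comparisons of genotype, the 2 of Lrig1 with Lgr6 and the 3 differences in the Pelo effect, under every alternative run. For Lrig1 against Lgr5 in WT, 3 genes became 5 with DESeq2 and 1 to 3 with 1 library left out. For Lgr6 against Lgr5 in WT, 7 became 4 with RLE size factors, 3 with only the groups compared and 2 to 6 with 1 library left out. For Lrig1 against Lgr5 in Pelo -/-, 2 became 1 with RLE size factors, 4 with no low-count filter, 4 with a mean CPM of at least 5, 4 with DESeq2 and 1 to 7 with 1 library left out. For Lgr6 against Lgr5 in Pelo -/-, 6 became 10 with limma-voom and 3 to 17 with 1 library left out. DESeq2 called the same 6 genes there and also Anln, Cdk1 and Racgap1. Smaller changes in count under other alternatives are not all listed. The cause of these changes was not tested. Leaving out a library leaves fewer samples, and WT Lrig1 then holds 1, which is assumed to vary like the other groups. Whether the same replicate numbers in different groups pair the libraries is not known. Correlations of their deviations from the group means ran from -0.24 to 0.24, and no comparison had every pair above 0.1. These cannot settle the question, since deviations within groups of 2 or 3 libraries are tied to each other. With the replicate number as a block, 2, 7, 3 and 8 genes were called in these 4 comparisons and 0 in the others. Depth limits the least abundant genes, since 2 counts of Nuf2 and 1 of Kif20a gave the lowest values of those genes. Cdk1, whose lowest value came from 3 counts, ranked 7 of the 48 per length and is not among them.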
